A study of Homo sapiens with 6 samples.

Results

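LSD1 binding in NCI-H526 cells given an LSD1 inhibitor was compared, peak by peak, with LSD1 binding in the same line given DMSO, the vehicle. The members were all 49597 LSD1 peaks of the inhibitor library and all 45188 LSD1 peaks of the DMSO library, 94785 of the 271093 distinct intervals in the 4 deposited peak lists of the series. Peaks of the 2 LSD1 lists that shared at least 1 bp were paired 1-to-1, the largest overlap first, which gave 28051 pairs. NCI-H526 is an established human small cell lung cancer line. The inhibitor is GSK2879552, shortened to GSK552 in the labels. Treatment was 1 µM for 24 hours. The labels repeat this text for all samples, and here it was taken to describe the GSK552 libraries. Chromatin was crosslinked, and LSD1-bound DNA was sequenced (chromatin immunoprecipitation followed by sequencing, ChIP-seq). A list of 81619 distinct H3K4me2 intervals and a list of 94689 H3K4me1 intervals, both from DMSO cells, served as a fixed map. Histone marks after inhibitor were not analysed here, and the lists hold no measure that checks the effect of the inhibitor or the identity of the line.

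Each condition was 1 library of 1 cell line. All differences below therefore describe 2 single libraries, have no replicate check and carry no p-value. Shares of peaks have 95% Wilson intervals, differences of shares Newcombe intervals, and medians exact binomial intervals from the ordered values. These cover counting error only and treat neighbouring peaks as independent, which they are not. The lists carry no read depth.

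As background, LSD1 (KDM1A) is a flavin-dependent demethylase that removes methyl groups from H3K4me1 and H3K4me2. It works in complexes with the scaffold CoREST and histone deacetylases and is brought to DNA by transcription factors, among them GFI1, GFI1B and INSM1. H3K4me1 is typical of enhancers, while H3K4me2 is found at enhancers and promoters. GSK2879552 inactivates the enzyme irreversibly through its flavin cofactor, so a peak list shows where the protein was found, not whether it was active.

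The 2 LSD1 lists differed in how finely they resolve the genome. The narrowest DMSO peak was 153 bp and the narrowest inhibitor peak 139 bp, and 2719 and 1874 peaks had exactly these widths. Neighbouring peaks were never closer than 613 bp with DMSO and 557 bp with inhibitor, in each list 1 bp more than 4 times its narrowest width (612 and 556 bp). With inhibitor, 623 gaps between neighbours were 612 bp or shorter, and with DMSO 0 were. The deposited −log10 q, the caller's corrected significance value for a peak against background, had a median of 1.95 with DMSO and 2.88 with inhibitor. It is not a measure of enrichment. The part of these list differences in the widths and splits below was not tested, except where a measurement is given.

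Most peaks that met a partner met exactly 1. Of the DMSO peaks, 62.1% (61.6 to 62.5%) were paired, and of the inhibitor peaks 56.6% (56.1 to 57.0%). Overlapping peaks formed 28012 separate groups, of which 26786 (95.6%) held 1 peak of each list. A further 708 groups held 1 DMSO peak with 2 or more inhibitor peaks, 463 held 2 or more DMSO peaks with 1 inhibitor peak, and 55 held 2 or more of both. Because a peak can have only 1 partner, 487 DMSO and 752 inhibitor peaks were overlapped and yet left unpaired. No overlap was found for 16650 DMSO and 20794 inhibitor peaks.

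A typical pair was nested or nearly so. The median overlap was 325 bp, or 98.7% of the narrower peak of the pair. Even so, 53.7% of pairs (15066) shared at least 50% of both peaks, and with that rule in place of 1 bp the paired share of DMSO peaks was 33.3%. At the edge of the 1 bp rule, 57 pairs overlapped by 10 bp or less, and 50 unmatched DMSO peaks lay within 10 bp of an inhibitor peak. Of the unmatched DMSO peaks, 2527 (15.2%) had an inhibitor peak within 1000 bp. Paired peaks were wide, with a median of 590 bp with DMSO and 530 bp with inhibitor, against 333 bp and 261 bp for peaks with no overlap.

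Pairing was most frequent on H3K4me2 and lower in each class off it. On H3K4me2, 76.9% (76.4 to 77.5%) of DMSO peaks and 66.2% (65.6 to 66.8%) of inhibitor peaks were paired. Off the mark but within 1 kb of the nearest H3K4me2 interval the shares were 56.3% and 47.6%. From 1 to under 10 kb they were 42.4% (41.2 to 43.5%) and 43.9% (42.7 to 45.1%), the lowest of the 5 distance classes in both lists. At 10 to under 100 kb they were 46.0% (45.0 to 46.9%) and 45.2% (44.2 to 46.1%), and for inhibitor peaks the intervals of these 2 classes overlapped. Beyond 100 kb they were 52.7% (50.5 to 55.0%) and 51.0% (48.8 to 53.3%). Widths differed along this series too: the median DMSO peak was 637 bp on H3K4me2, 375 bp at 1 to under 10 kb and 288 bp beyond 100 kb.

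Splitting, in which 1 DMSO peak lay over 2 or more inhibitor peaks, was found for 764 of 28538 overlapped DMSO peaks (2.68%, 2.50 to 2.87%). Merging, in which 1 inhibitor peak lay over 2 or more DMSO peaks, was found for 518 of 28803 overlapped inhibitor peaks (1.80%, 1.65 to 1.96%). Nearly all events were simple. Of the split peaks 739 had 2 parts, 23 had 3 and 2 had 4. Of the merged peaks 510 spanned 2 and 8 spanned 3.

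Both events were mostly found in wide peaks, and most of these peaks lay on H3K4me2. A peak can meet 2 of the other list only if it spans the gap between them. That gap was at least 557 bp with inhibitor and 613 bp with DMSO, so narrow peaks could not split or merge. Below 500 bp, 0 of 12135 overlapped DMSO peaks were split and 0 of 13794 overlapped inhibitor peaks merged. Split DMSO peaks had a median width of 1945.5 bp and merged inhibitor peaks one of 2017.5 bp. Among DMSO peaks of 1000 to under 1500 bp 4.46% were split, among those of 2000 to under 3000 bp 24.1%, and among the 234 overlapped peaks of 3000 bp or more 55.1% (48.7 to 61.4%). For inhibitor peaks of the same widths, merging was found in 2.58%, 20.6% and 37.6% (31.2 to 44.4%). H3K4me2 was overlapped by 695 of the 764 split peaks (91.0%) and 488 of the 518 merged peaks (94.2%), against 62.0% and 61.7% of the DMSO and inhibitor peaks that met 1 partner. The peaks that met 1 partner include many too narrow to split or merge, so these shares are not matched for width. Among overlapped DMSO peaks of 2000 bp or more, however, 24.1% (14.96 to 36.5%) of the 58 with neither mark were split, as were 22.9% (12.1 to 39.0%) of the 35 on H3K4me1 alone, 20.3% (15.3 to 26.5%) of the 197 on H3K4me2 alone and 32.9% (29.95 to 36.1%) of the 908 on both. At that width the share on H3K4me2 alone and the share with neither mark differed by less than their intervals.

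**Figure D1:**
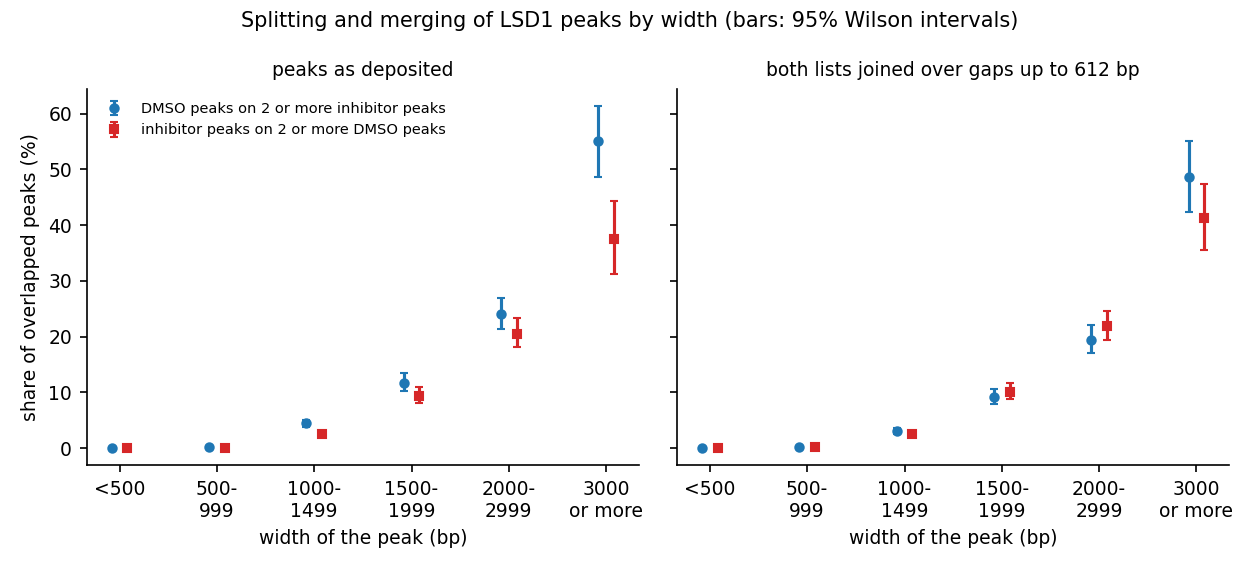
Share of overlapped LSD1 peaks that met 2 or more peaks of the other list, by peak width in bp, for peaks as deposited (left) and after both lists were joined over gaps of up to 612 bp (right). The joining changed the inhibitor list only. Points are shares of 1 library each and bars are 95% Wilson intervals. The excess of splitting over merging at 1000 to under 1500 bp (4.46% against 2.58%) on the left is smaller on the right (3.13% against 2.59%).

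The gaps inside split peaks carried as much H3K4me2 as the parts beside them. In the 764 split peaks the 791 gaps had a median of 720 bp, and 67.0% of their sequence lay in H3K4me2, against 67.7% of the sequence of the inhibitor parts. In the merged peaks the gaps between DMSO parts had a median of 779.5 bp, with 71.3% in H3K4me2 against 72.6% of the parts. H3K4me1 covered 51.9% of the split gaps and 46.9% of the parts. The parts were unequal, since the largest held a median of 69.8% of the overlap in split peaks and 72.3% in merged peaks.

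The excess of splitting over merging changed when nearby peaks were joined. No label states a joining distance for either list. Of the gaps inside split peaks, 182 of 791 (23%) were 612 bp or shorter, a distance at which no gap stands in the DMSO list. Joining peaks up to 612 bp apart therefore changed the inhibitor list only, from 49597 to 48974 peaks. Such joining cannot add splits and tends to add merges, so the rule itself set the direction of the change. After it, 595 DMSO peaks were split (2.08%, 1.93 to 2.26%) and 609 inhibitor peaks merged (2.13%, 1.97 to 2.31%). Per chromosome, Y included, splits then outnumbered merges on 11 chromosomes, merges outnumbered splits on 10, and 3 were equal. The joining was chosen after the gaps had been seen. When each list was first limited to a −log10 q of at least 2, without joining, splits were 2.35% and merges 0.928%, and that threshold keeps more inhibitor than DMSO peaks.

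By marks, the balance of splitting and merging was not the same everywhere, in counts not matched for width. As deposited, DMSO peaks on both marks were split in 551 of 11370 cases (4.85%, 4.47 to 5.26%) and inhibitor peaks on both marks merged in 338 of 11206 (3.02%, 2.72 to 3.35%). On H3K4me2 without H3K4me1 the counts were 144 of 6543 split (2.20%) and 150 of 6724 merged (2.23%). After joining, which changed the inhibitor list only, the peaks on both marks had 446 splits (3.92%) and 408 merges (3.66%). Those on H3K4me2 alone then had 98 splits (1.5%, 1.23 to 1.82%) and 169 merges (2.56%, 2.21 to 2.97%). Peaks with neither mark had 48 splits (0.597%) and 14 merges (0.169%) as deposited, and 37 (0.46%) and 15 (0.183%) after joining. The lists held unequal numbers of wide peaks. With neither mark, 668 overlapped DMSO and 370 overlapped inhibitor peaks were 1000 to under 2000 bp, and on H3K4me2 alone 1465 and 1621. At 2000 bp or more with neither mark, 24.1% (14.96 to 36.5%) of 58 were split and 18.75% (6.59 to 43.0%) of 16 merged. The part of width in the balance was not tested.

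The DMSO peak with the most parts of highest score was at chromosome 5, 139085333 to 139090409 (build hg19, as for all positions here, 5077 bp, fold enrichment 3.83). With inhibitor it was overlapped by 4 separate peaks of 426 to 1946 bp with folds of 3.46 to 5.71. These ran from 139084418 to 139091174, past both ends of the DMSO peak. Of the DMSO peak 77.4% lay in H3K4me2 and 90.0% in H3K4me1. The fold enrichment is the authors' own value for each peak and describes it within its list. The other peak with 4 parts was at chromosome 22, 26946682 to 26951331 (4650 bp), whose inhibitor parts of 187 to 1365 bp added up to 2376 bp. The peak at chromosome X, 23152373 to 23154759 (2387 bp, fold 5.47) fell into 3 inhibitor peaks of 263 to 379 bp, 987 bp in sum. Both outer ends lay close to those of the DMSO peak, since the first part began at 23152361 and the last ended at 23154737.

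Among the merged peaks, the leading one was at chromosome 13, 20355021 to 20358451, a single inhibitor peak of 3431 bp (fold 4.93) over 3 DMSO peaks of 234 to 811 bp with folds of 3.29 to 3.48. H3K4me2 covered 45.5% of it, and the nearest H3K4me1 interval was 60185 bp away. At chromosome 6, 52858941 to 52861706, an inhibitor peak of 2766 bp lay over 3 DMSO peaks of 236 to 341 bp, with 78.3% of it in H3K4me2. Of the 5 leading merged peaks, chosen by parts and then score, 4 had no H3K4me1 under them, and all 5 leading split peaks overlapped both marks. Over all events, H3K4me1 was overlapped by 354 of the 518 merged peaks (68.3%) and 572 of the 764 split peaks (74.9%), so the leading merged peaks were not typical in this.

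Across all pairs the inhibitor peak was slightly narrower. Beside the paired medians of 590 and 530 bp, the median within-pair ratio of inhibitor to DMSO width was 0.935 (0.927 to 0.943). The inhibitor peak was the narrower in 15240 pairs (54.3%, 53.7 to 54.9%), the wider in 12765, and of equal width in 46. A change of 1.5 times or more was frequent in both directions: 31.5% of pairs were narrower by that much (8826) and 23.5% wider (6599). The medians of the full lists, 471 and 388 bp, were further apart than those of the pairs. The narrowest widths of the lists stood in a ratio of 0.908. With each width reduced by the narrowest width of its own list, 52.2% of pairs were narrower with inhibitor.

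The marks under a pair went with the direction of the width difference. The share narrower on H3K4me2 alone was not among the planned results. Where the pair overlapped H3K4me2 without H3K4me1, the inhibitor peak was the wider more often than not: medians were 636 bp with DMSO and 676 bp with inhibitor over 6009 pairs, the median ratio was 1.06, and 46.3% (45.0 to 47.5%) were narrower. On both marks the medians were 762 and 705 bp over 12162 pairs, with 54.1% (53.2 to 55.0%) narrower. On H3K4me1 alone they were 465 and 384 bp over 2495 pairs, with 58.5% (56.5 to 60.4%) narrower. With neither mark they were 389 and 304 bp over 7385 pairs, with 59.9% (58.8 to 61.0%) narrower. The share narrower on H3K4me2 alone differed by −7.79 points (−9.33 to −6.25) from that on both marks and by −13.6 points (−15.3 to −11.9) from that with neither.

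**Figure D2:**
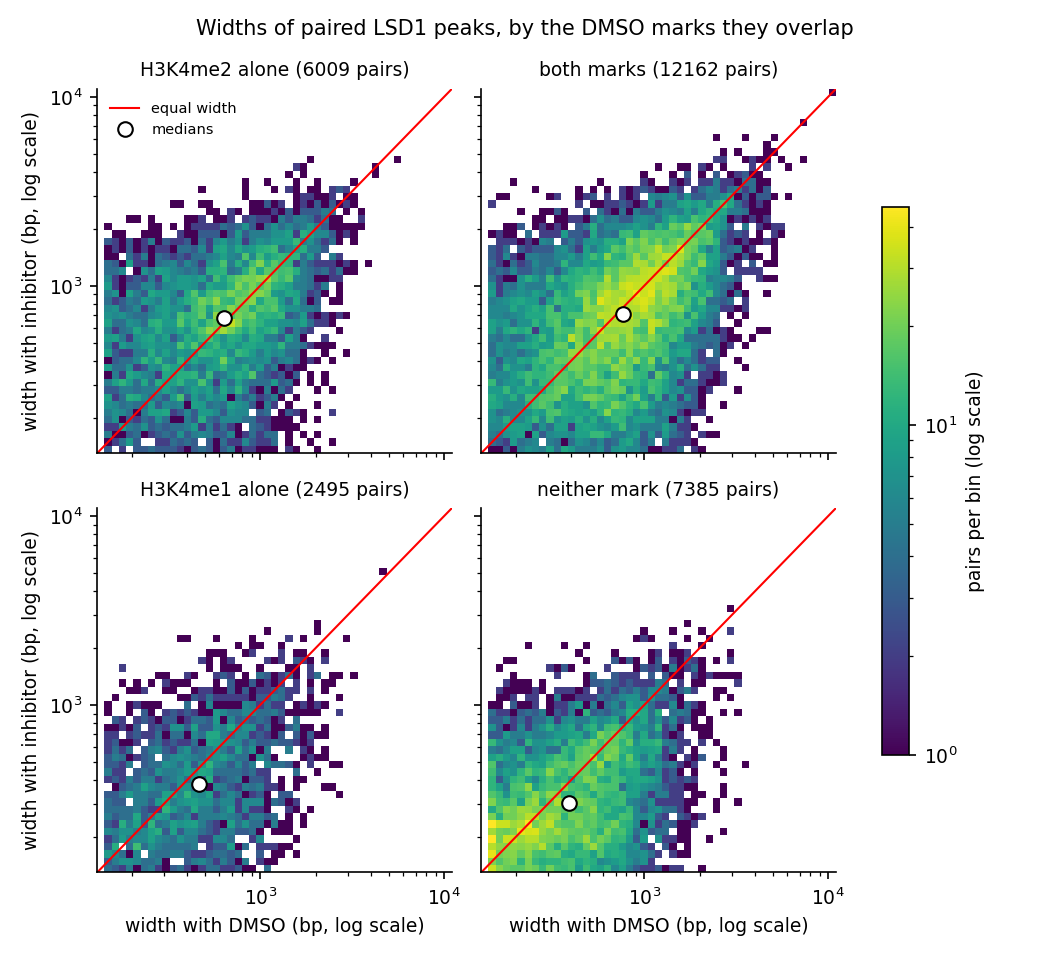
Width of each LSD1 peak with DMSO (x axis, bp, log scale) against its inhibitor partner (y axis, bp, log scale), for the 28051 pairs in 4 panels by the DMSO marks they overlap. Colour is the number of pairs in a bin, the red line is equal width and the white point the 2 medians. The point lies above the line on H3K4me2 alone (636 and 676 bp) and below it in the other panels.

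Changes of 1.5 times or more followed the same order. On H3K4me2 alone 25.4% of pairs were narrower by this much and 30.5% wider. On both marks 31.9% were narrower and 24.5% wider, and with neither mark 34.8% were narrower and 17.4% wider. The background over all pairs was 31.5% and 23.5%.

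By distance to H3K4me2 alone, with H3K4me1 left out of account, the share narrower was lowest on the mark and above 50% in each class. Of the pairs on H3K4me2, 66.9% also overlapped H3K4me1. On H3K4me2 51.5% (50.8 to 52.2%) of 18171 pairs were narrower with inhibitor, and off it within 1 kb 54.4% (51.6 to 57.2%) of 1246. The share was 60.5% (58.6 to 62.3%) at 1 to under 10 kb, 60.0% (58.6 to 61.4%) at 10 to under 100 kb and 61.1% (58.1 to 64.1%) at 100 kb or more. The last 3 classes differed by less than their intervals. The share on H3K4me2 differed by −8.71 points (−10.2 to −7.26) from that at 10 kb or more, where 60.2% of 5845 pairs were narrower. The difference was −5.26 points among pairs that shared at least 50% of both peaks.

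Pairs on H3K4me2 were also wider, so the contrast was repeated among pairs of like width and like score. Pairs were ordered by the geometric mean of their 2 widths and cut into 5 equal groups. The difference between pairs on H3K4me2 and pairs 10 kb or more away ran from −4.38 points (−7.38 to −1.37) in the narrowest group to −13.5 points (−19.2 to −7.41) in the widest. By the mean score percentile (the place of each peak's score within its own list, averaged over the pair) it lay between −11.9 points (−15.1 to −8.57), in the second group, and −5.24 points (−8.33 to −2.11), in the highest. On H3K4me2 alone the share narrower lay between 43.3% and 48.9% in the 5 groups by width and between 43.7% and 49.0% in the 5 by score, below both marks and below neither mark in each group.

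**Figure D3:**
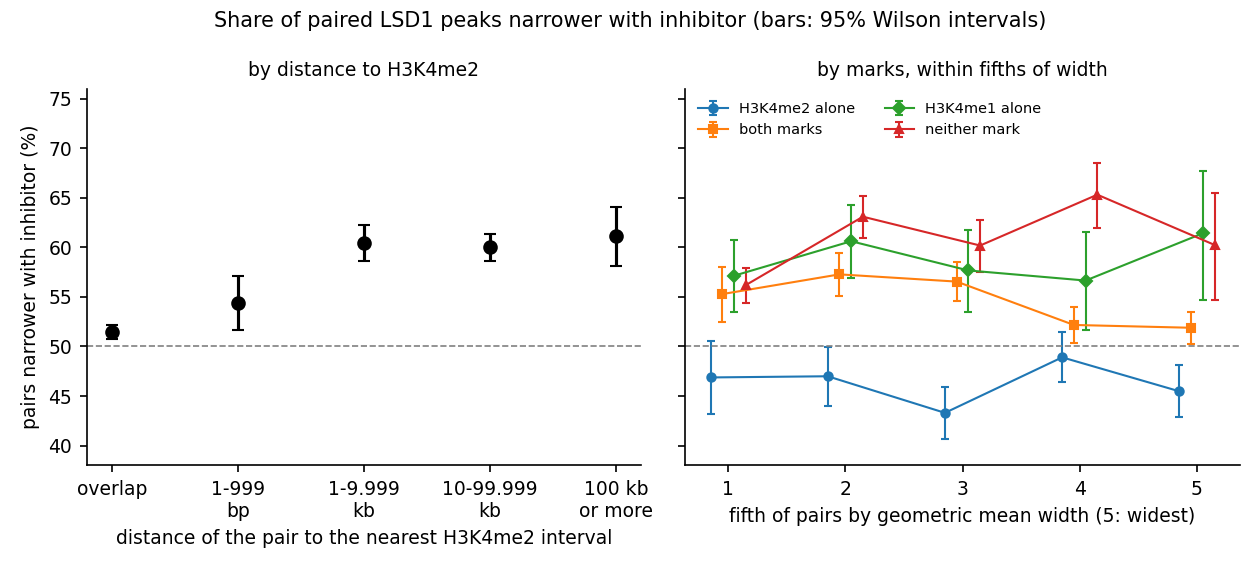
Share of pairs that were narrower with inhibitor (y axis, percent) by distance of the pair to the nearest H3K4me2 interval (left) and by marks within 5 equal groups of geometric mean width (right). Points are shares of pairs of the 2 single libraries, bars are 95% Wilson intervals, and the dashed line marks 50%. Pairs on H3K4me2 alone lie below 50% in each width group, and pairs 1 kb or more from H3K4me2 lie near 60%.

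The strength of the H3K4me2 interval also went with the width difference. Pair width rose along it too, and the part of width was not tested. The score of the strongest interval under a pair was used to cut the 18171 pairs into 5 groups. In the weakest group the medians were 547 bp with DMSO and 459.5 bp with inhibitor, and 57.8% (56.2 to 59.4%) were narrower. In the strongest they were 903 and 980 bp, and 46.6% (45.0 to 48.2%) were narrower. On H3K4me2 alone the share was 56.0% (52.4 to 59.6%) in the weakest group and 43.2% (40.8 to 45.6%) in the strongest, and on both marks 58.2% (56.5 to 60.0%) and 49.3% (47.1 to 51.5%). Pairs on H3K4me2 alone had stronger intervals on the whole, since 1604 of the 6009 were in the strongest group and 727 in the weakest.

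Pooled over all pairs, sequence in the inhibitor peak alone held more H3K4me2 than sequence in the DMSO peak alone. The paired peaks covered 21.2 Mb with DMSO and 19.9 Mb with inhibitor, of which 13.3 Mb was common. Sequence called DMSO-only or inhibitor-only here lay outside the partner of the pair. Some of it may lie under a further, unpaired peak of the other list. H3K4me2 lay under 54.5% of the common sequence, 48.7% of the 7.92 Mb of DMSO-only sequence and 55.7% of the 6.60 Mb of inhibitor-only sequence. H3K4me1 lay under 34.3%, 39.9% and 35.7% of them. For pairs on H3K4me2 alone the inhibitor-only sequence (1.82 Mb) exceeded the DMSO-only sequence (1.54 Mb), and H3K4me2 covered 68.9% and 68.1% of them. For pairs on both marks H3K4me2 covered 69.1% of the 3.51 Mb inhibitor-only and 67.0% of the 4.19 Mb DMSO-only sequence. Within both classes on H3K4me2 the difference was thus smaller than in the pool. Pairs with neither mark had 0.89 Mb and 1.58 Mb, which hold no H3K4me2 by definition and count in the pooled shares.

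Among pairs on H3K4me2, both peaks mostly touched the mark. Paired peaks overlap by rule and the map is a fixed DMSO list, so these counts cannot show that contact was kept. Of 22773 DMSO peaks on H3K4me2, 17522 were paired, and those without a partner do not enter. H3K4me2 was overlapped by both peaks in 16722 pairs (59.6%), by the DMSO peak only in 800 (2.85%, 2.66 to 3.05%) and by the inhibitor peak only in 649 (2.31%, 2.14 to 2.50%). Pairs that touched it with DMSO only had a median width ratio of 0.44, and those that touched it with inhibitor only one of 1.93. Sorting pairs by which peak reaches the mark itself favours such ratios, so nothing is read from them.

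Edges moved in both directions about equally on the 2 sides. The median displacement was 139 bp for the edge at the lower coordinate and 138 bp for that at the higher coordinate, while the median inward movement was 6 and 5 bp. In 7058 pairs (25.2%) the inhibitor peak lay within the DMSO peak, in 6146 (21.9%) the DMSO peak lay within the inhibitor peak, and in 14847 (52.9%) they were staggered. Of the staggered pairs 7382 had the inhibitor peak at lower and 7465 at higher coordinates. No pair had both edges at the same positions.

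Centres of paired peaks lay a median of 141 bp (138.5 to 143.5) apart, with quartiles of 55.5 and 286.5 bp. As a share of the mean width of the pair this was a median of 24.7%, and in 20.5% of pairs it was 50% or more. The centres were within 100 bp in 11158 pairs (39.8%) and more than 500 bp apart in 2483 (8.85%). In 5493 pairs (19.6%) the centre of the inhibitor peak fell outside the DMSO peak. The signed shift had a median of 0.50 bp, so neither chromosome direction prevailed. Among pairs that shared at least 50% of both peaks, a rule that itself limits the shift, the median distance was 73.0 bp.

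Centre distance in bp grew with width, and centre distance relative to width shrank with score. In the narrowest of the 5 width groups the median was 54.0 bp and in the widest 253.75 bp, while as a share of width it was 22.8% and 17.6%, with the highest value, 31.6%, in the second group. By score the share of width fell in every step, from 34.4% in the lowest group to 18.2% in the highest, and pairs with centres apart by 50% or more of the width fell from 33.4% to 8.4%, beside 20.5% over all pairs. In bp the medians by score did not fall throughout, with 168 bp in the lowest group, 118.5 bp in the fourth and 124.5 bp in the highest. The median distance was 167 bp on H3K4me2 alone, 180 bp on both marks, 107 bp on H3K4me1 alone and 87.0 bp with neither mark. Relative to width these classes were close together, at 25.9%, 24.9%, 24.4% and 23.4%.

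**Figure D4:**
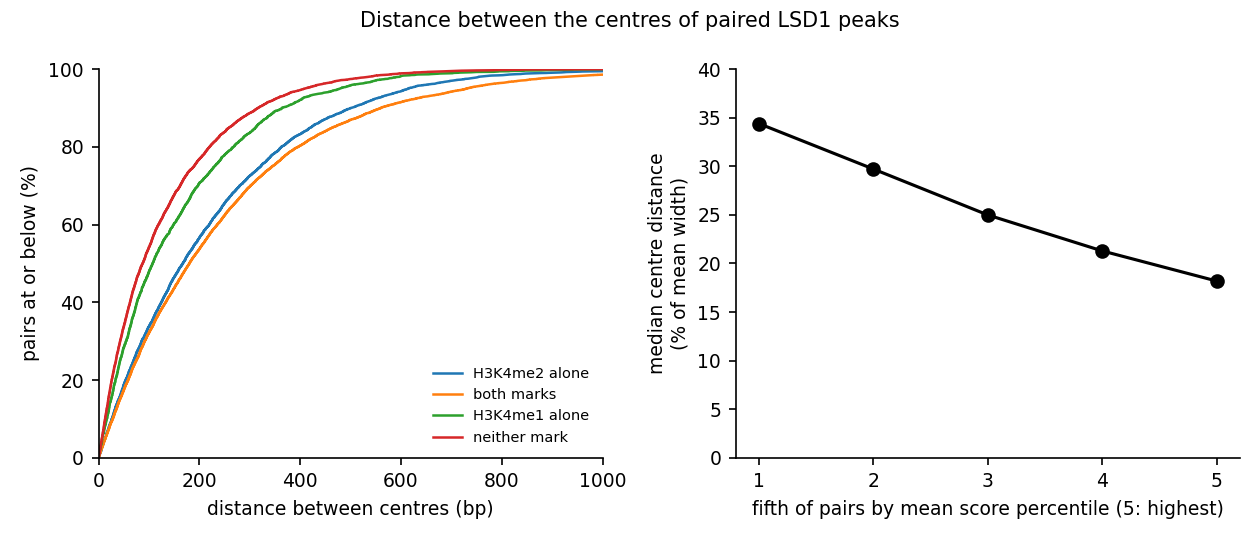
Left: cumulative share of pairs (y axis, percent) by the distance between the centres of the 2 peaks (x axis, bp, shown to 1000 bp), 1 line for each class of marks. Right: median centre distance as a percent of the mean width in 5 equal groups of mean score percentile. The lines for pairs on H3K4me2 lie to the right of the others, and the relative distance falls from 34.4% to 18.2% with score.

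Off H3K4me2 the centres had next to no preferred direction relative to the mark. Of 9858 pairs with a shift, 5006 (50.8%, 49.8 to 51.8%) had the inhibitor centre nearer to the side of the closest H3K4me2 interval. Within 1 kb it was 662 of 1242 (53.3%, 50.5 to 56.1%), with a median shift of 11 bp toward the interval, and at 10 to under 100 kb 2420 of 4833 (50.1%, 48.7 to 51.5%). Within 1 kb the edge facing H3K4me2 moved inward in 48.2% of pairs and the far edge in 54.9%. At 1 to under 10 kb these shares were 55.4% and 55.6%.

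Narrower inhibitor peaks outnumbered wider ones on each chromosome that was ranked. On the 23 chromosomes with 100 or more pairs, between 50.6% (chromosome 13, 47.8 to 53.4%) and 60.6% (chromosome X, 56.6 to 64.5%) of pairs were narrower with inhibitor, and on 17 the interval held the overall 54.3%. Chromosome Y had 7 pairs and was not ranked. Pairs not on H3K4me2 were narrower in more than 50% of cases on all 23, from 56.5% on chromosome 10 to 67.0% on chromosome 19. On 22 of the 23 this was above the share on H3K4me2, and the exception was chromosome 10, with 56.5% off and 56.7% on the mark. On H3K4me2 the share was below 50% on 5 chromosomes. These were 1 (47.9%, 45.6 to 50.2%), 7 (49.5%, 46.5 to 52.5%), 11 (47.2%, 44.5 to 49.9%), 13 (45.4%, 41.8 to 49.1%) and 17 (48.7%, 45.4 to 51.9%). The intervals of chromosomes 1, 7 and 17 held 50%.

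**Figure D5:**
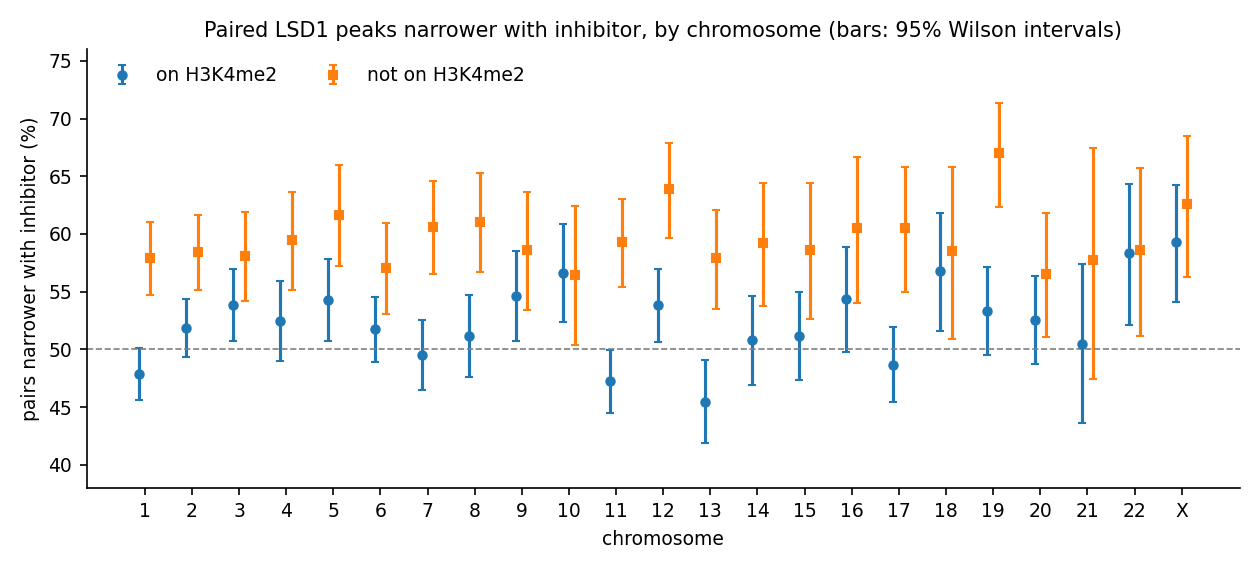
Share of pairs narrower with inhibitor (y axis, percent) on the 23 chromosomes with 100 or more pairs, for pairs on H3K4me2 and not on it. Points are shares of the 2 single libraries, bars are 95% Wilson intervals and the dashed line marks 50%. Off the mark every chromosome lies above 50%, and on the mark 5 points lie below it, not all with their whole bar.

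For pairs on H3K4me2 alone the share narrower was below that of pairs with neither mark on all 23 chromosomes. It was below 50% on 15, though not every interval of these excluded 50%. It was lowest on chromosomes 13 (38.8% of 183 pairs), 11 (40.3% of 305) and 2 (40.7% of 447). It was highest on chromosomes 22 (58.1% of 93, 47.9 to 67.6%) and X (54.1% of 159, 46.3 to 61.6%), where both intervals held 50%. Median centre distance ran from 122.5 bp (114.5 to 132.5) on chromosome 3 to 167 bp (147.5 to 178.5) on chromosome 19. The paired DMSO peaks of these 2 chromosomes had median widths of 535 and 678.5 bp. Relative to width, the medians lay between 21.3% and 28.4% over the 23.

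The share of peaks that were paired also ranged by chromosome. On chromosome 13, 70.1% of 1757 DMSO peaks were paired, the highest share, and its list had 2107 inhibitor peaks. On chromosome 22, 51.0% of 821 DMSO peaks were paired, the lowest of the 23, and it was the 1 chromosome of the 23 with fewer inhibitor (771) than DMSO peaks. Splits outnumbered merges on 20 of the 23 as deposited, by 48 to 19 on chromosome 19 and 26 to 6 on chromosome 9. Chromosomes 7, 13 and 21 had more merges, with 29 and 36, 23 and 31, and 2 and 7 events.

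The best pair by mean rank of score was at chromosome 8, 61704927 to 61705831 with DMSO (905 bp, fold 16.6) and 61705097 to 61705793 with inhibitor (697 bp, fold 10.1). At chromosome 18 a DMSO peak of 1332 bp (66094437 to 66095768) was paired with an inhibitor peak of 599 bp (66095099 to 66095697) that lay within it. Both pairs overlapped both marks.

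The next 3 had neither mark. At chromosome 7 widths were 1435 and 558 bp (12178234 to 12179668 and 12179045 to 12179602), and the centre moved by 372.5 bp. At chromosome 14 they were 1526 and 678 bp (89761495 to 89763020 and 89762418 to 89763095). At chromosome 17 they were 3144 and 906 bp (28637118 to 28640261 and 28639074 to 28639979), with centres 837 bp apart. In all 5 the inhibitor peak was the narrower.

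Longer lists of the strongest pairs were also examined, with sizes chosen after these 5 had been seen. Of the 100 best by mean rank 64 were narrower with inhibitor (64.0%, 54.2 to 72.7%), with medians of 1024.5 bp and 713.5 bp. Of the 1000 best 620 were narrower (62.0%, 59.0 to 65.0%), and of the 5000 best 2784 (55.7%, 54.3 to 57.1%), an interval that holds the 54.3% over all pairs. In the 5 groups by score the share had no steady course, with 56.1% in the lowest, 53.2% in the middle and 55.2% in the highest. A narrowing by 1.5 times or more was found in 41 of the 100, against 9 that widened as much, beside the backgrounds of 31.5% and 23.5%. H3K4me2 was overlapped by 48.0% of the 100 and by 64.8% of all pairs.

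In the highest 10% of pairs by mean score percentile (2805 pairs), 57.3% (55.4 to 59.1%) were narrower. Here pairs on H3K4me2 alone were near balance, with medians of 761 and 690 bp over 223 pairs and 50.7% narrower (44.2 to 57.2%). The pairs with neither mark had medians of 538 and 418 bp, and 59.6% of 693 were narrower (55.9 to 63.2%).

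The greatest narrowing within this 10% was at chromosome 2, where a DMSO peak of 2678 bp (33133582 to 33136259, fold 5.25) was paired with an inhibitor peak of 312 bp (33134237 to 33134548, fold 5.04). The DMSO peak also overlapped a second inhibitor peak, and the pair lay on both marks. At chromosome 10 a peak of 1706 bp (4809770 to 4811475, fold 7.89) was paired with 1 of 202 bp (4810662 to 4810863, fold 7.88), 47196 bp from H3K4me2. At chromosome 22 widths were 1911 bp (23182038 to 23183948, fold 8.33) and 246 bp (23183065 to 23183310, fold 5.23), without marks.

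The greatest widening was at chromosome 12, from 279 bp (129773041 to 129773319, fold 4.05) to 2525 bp (129771846 to 129774370, fold 5.46). The next was at chromosome 11, from 157 bp (120381903 to 120382059) to 1320 bp (120381766 to 120383085), with folds of 4.41 and 4.37. Of the 5 most widened pairs 4 overlapped both marks and 1 H3K4me1 alone. Of the 5 most narrowed 2 overlapped both marks, 2 neither and 1 H3K4me1 alone. Among the 2805 pairs they were drawn from, 55.6% overlapped both marks, 24.7% neither and 11.8% H3K4me1 alone, and nothing is read from counts out of 5.

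The largest centre shift in this 10% was 1791 bp at chromosome 11, where the inhibitor peak of 6043 bp (118779866 to 118785908) contained the DMSO peak of 2431 bp (118779881 to 118782311) and overlapped a second DMSO peak. The next was 1686 bp at chromosome 1, where a DMSO peak of 4468 bp (38401768 to 38406235) was split into 3 and its partner of 1100 bp (38405138 to 38406237) lay at 1 end. At chromosome 19 a DMSO peak of 3366 bp (38719646 to 38723011, fold 7.23) and an inhibitor peak of 2635 bp (38718372 to 38721006, fold 9.49) had centres 1639.5 bp apart, each overlapping 2 peaks of the other list. All 5 of the most shifted pairs involved a split or merged peak, as 119 of the 2805 pairs did (4.24%), and all 5 overlapped both marks. They were chosen for their shift, so these counts describe 5 pairs only.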

How the data were processed

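Peak lists of 4 of the 6 samples were used: LSD1 with DMSO, LSD1 with inhibitor, and H3K4me2 and H3K4me1 with DMSO, 1 library each. The 2 inputs were not analysed here. BWA, Picard and MACS2 2.0 with build hg19 are named in the submitters' processing notes. Thresholds, the control and duplicate handling are not stated in the labels. The lowest −log10 q among LSD1 peaks was 1.002 with DMSO and 1.008 with inhibitor. Among mark intervals it was 2.016 (H3K4me2) and 2.014 (H3K4me1). Weaker calls were thus kept for LSD1 than for the marks, and a peak off a mark lacked only an interval at the stricter level. Beyond the alternative with a −log10 q of 2 or more, the effect of this was not tested. Columns were read from the MACS2 layout, since the files have no header. The deposited score is a whole number near 10 times the −log10 q. The fold enrichment per peak, a ratio to a background estimate, is likewise as deposited by the authors. So are the −log10 p and −log10 q, used here for ranking or filtering inside a list, and given as a median to describe each list.

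Rows with several summits were reduced to distinct intervals. Overlap needed 1 bp. Distance to H3K4me2 was taken from the joint span of a pair, and marks were called on that span. No test was run. Peaks named by position followed a fixed rule: the 5 leading splits and merges by parts, then score, the 5 pairs of best mean rank, and, in the highest 10% by mean score percentile, the 5 most narrowed, widened and shifted. Those printed are the foremost of each set. The members, rules and alternatives were chosen with earlier results of these data known. No hg19 genome or annotation was used here, so no gene or sequence is given at a peak. Pairing, splits, merges and distances were tested on simulated data with planted answers, and all were recovered. Python 3.11.15, numpy 2.4.6, pandas 2.3.3, scipy 1.17.1 and networkx were used.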

Additional observations from a re-analysis of the deposited data

How the results depend on the processing

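No paired analysis was possible because the LSD1 conditions hold 1 library apiece, with no replicates to pair. Depth is unknown, so a peak missing from a list is not shown to be absent, and widths cannot be compared at equal depth. Joining peaks less than 500 bp apart moved no value, since no gap in either LSD1 list was that short. Where nothing else is stated, causes of the changes below were not tested.

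With a reciprocal overlap of 50%, 33.3% of DMSO peaks were paired, 51.2% of pairs were narrower with inhibitor, centres were 73.0 bp apart, and the difference on against 10 kb or more from H3K4me2 was −5.26 points. With the highest-scoring 50% of each list, 58.3% were paired, 1.71% split and 1.05% merged, centres were 126.5 bp apart, and the difference was −6.53 points. With −log10 q of 2 or more, 72.8% were paired, 2.35% split, 0.928% merged and 53.6% of pairs narrower, and centres were 127.5 bp apart. At equal list length 59.3% were paired and 2.48% split. With pairs that overlap no further peak, which leaves out split and merged peaks, centres were 132 bp apart.

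Added after the data were seen, joining over 612 bp changed the inhibitor list only. It gave 2.08% split, 2.13% merged and 53.5% narrower. Widths less the narrowest of their list, also added then, gave 52.2% narrower and a difference of −6.38 points. The share of pairs narrower stayed above 50% in its 11 alternatives, the difference stayed below 0 in its 10 (−9.66 to −5.26 points), and the share narrower on H3K4me2 alone stayed below 50% in its 11 (44.0 to 46.8%). The share of centres toward H3K4me2 stayed within its counting interval in its 8 alternatives (50.1 to 50.8%).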

Other observations

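Distance to H3K4me1 ordered the pairs differently from distance to H3K4me2. On H3K4me1 54.8% (54.0 to 55.6%) of 14657 pairs were narrower with inhibitor. Off the mark but within 1 kb the share was 49.6% (48.0 to 51.2%) of 3673 pairs, with medians of 532 bp with DMSO and 530 bp with inhibitor. It was 52.2% (50.5 to 53.8%) of 3532 pairs at 1 to under 10 kb and 57.2% (55.8 to 58.5%) of 5207 pairs at 10 to under 100 kb. In all, 1283 pairs touched H3K4me1 with DMSO only and 949 with inhibitor only, beside 12425 that touched it in both.

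Among overlapped DMSO peaks of 1000 to under 2000 bp, 7.30% (6.47 to 8.24%) on both marks were split, 6.62% (5.46 to 8.01%) on H3K4me2 alone, 3.63% (2.09 to 6.23%) on H3K4me1 alone and 4.19% (2.92 to 5.99%) with neither mark. For merging of inhibitor peaks of 2000 bp or more, the shares were 23.2% (20.4 to 26.1%) of 842 on both marks, 25.4% (20.3 to 31.3%) of 240 on H3K4me2 alone, 31.25% (14.2 to 55.6%) of 16 on H3K4me1 alone and 18.75% (6.59 to 43.0%) of 16 with neither.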
